A study of Mus musculus with 27 samples.

Results

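The nuclear RNA of mouse embryonic stem cells that had lost Dicer was compared with the nuclear RNA of the same line before the loss. The comparison used 6 of the 27 libraries of the series, namely all libraries labelled nucleus: 3 of day 12 and 3 of day 0. Dicer is the RNase III enzyme that cuts microRNA precursors into mature microRNAs. Nuclear RNA is of interest here because it holds unspliced and newly made transcripts, long noncoding RNAs and host transcripts of small RNAs that can be scarce in whole cells.

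The nucleus day 12 group came from the XY line DTCM23/49, which carries a conditional Dicer allele, after 4-hydroxytamoxifen at 800 nM had removed the RNase III domain and Dicer-deficient colonies had been picked, expanded and passaged up to day 12. The nucleus day 0 group came from that line before induction, so both groups carry the conditional allele. Cultures were kept in serum on gelatin-coated plates, and leukemia inhibitory factor was added, which holds mouse embryonic stem cells undifferentiated. The treatment text mentions ethanol-treated controls, but no library of day 12 is labelled as one, so loss of Dicer cannot be told apart from the drug, the culture time or the expansion of colonies. Nuclei and cytoplasm were separated with the PARIS kit, and polyadenylated RNA was sequenced from both ends with reads of 100 bases. The 6 cytoplasmic libraries of the same days serve below to ask whether a change was of the same size in both fractions.

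Values are FPKM, fragments scaled to transcript length and to the library's own size, so a level says what share of the nuclear polyadenylated RNA a gene made up and not how much of it a nucleus held. In bulk RNA, fewer cells that express a gene and less RNA per cell cannot be told apart. Changes are log2 differences of FPKM + 0.5, day 12 minus day 0, with a standard error (SE) and a limma p-value adjusted over all genes tested. A gene is said to have risen or fallen where that adjusted p is under 0.05. The labels do not say how far the replicates were grown apart, so these p-values measure the spread between the libraries at hand.

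Replicate 1 of nucleus day 12 and replicate 3 of nucleus day 0 stood apart from their groups. On the log2 scale they correlated with the other libraries of their own day at 0.933 and 0.942 (day 12) and at 0.906 and 0.920 (day 0), while the remaining pair of each day reached 0.985 at day 12 and 0.980 at day 0. They deviated in opposite directions along gene length. Among the protein-coding genes with the shortest exonic length, replicate 1 of day 12 lay at a median of -0.49 from the other day 12 libraries and replicate 3 of day 0 at 0.54 from the other day 0 libraries, and among those with the longest the values were 0.28 and -0.54. The mRNAs of ribosomal proteins, which are short, made up 7.13% of all FPKM in the first of these libraries and 18.997% in the second, against 10.9% to 12.7% in the other 4 nuclear libraries. The part of this in the results was tested only through refits without both libraries and with the length trend taken out, which are quoted where they matter.

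**Figure D1:**
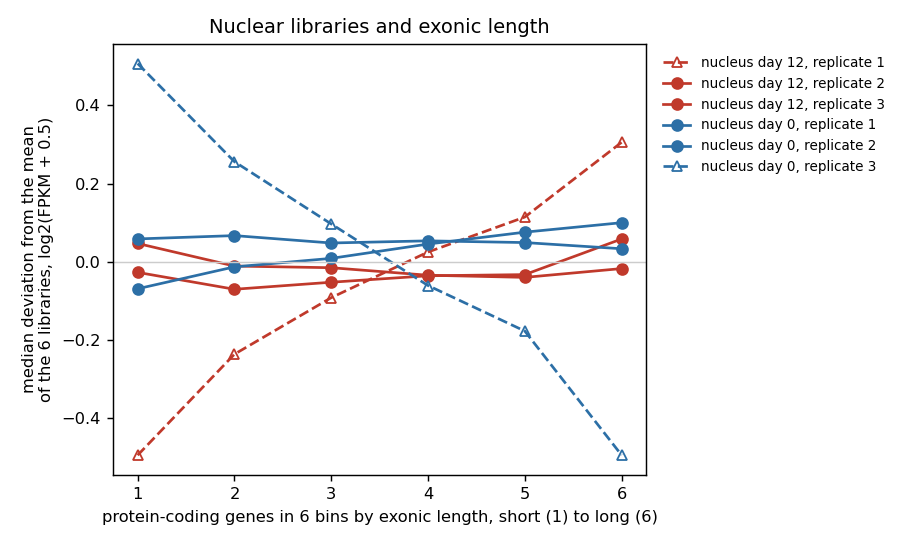
Median deviation of each nuclear library from the mean of the 6, in log2(FPKM + 0.5), for 6 bins of protein-coding genes from short to long exonic length; day 12 libraries in red, day 0 libraries in blue, dashed lines with triangles for the libraries that stand apart. The dashed lines cross, from -0.49 and 0.51 in the shortest bin to 0.31 and -0.49 in the longest, while the other 4 stay near 0.

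The targeted gene checked the labels. Dicer1 (chromosome 12, 104687742 to 104751952, minus strand, GRCm38) stood at 5.46, 3.42 and 3.70 FPKM in nucleus day 12, against 15.1, 16.8 and 7.86 FPKM in nucleus day 0. All 3 day 12 libraries were below all 3 of day 0, as for 24.8% of all genes tested. The lowest day 0 value belongs to the replicate that stands apart. The log2 change was -1.51 ± 0.25 (SE, adjusted p = 0.00119), and an exact 2-sided permutation test over the 6 libraries gave p = 0.1, the smallest it can give. Without both libraries that stand apart the change was -2.02. FPKM is summed over the whole gene, so reads of the remaining exons of the deleted allele count as Dicer1.

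Of 17124 genes tested, 2585 were higher in nucleus day 12 (15.1%) and 3696 lower (21.6%), with a median log2 change of -0.10 over all genes. The test shares its estimate of spread between the nuclear and the cytoplasmic libraries, and the nuclear ones vary more. The median SD over the 3 libraries of a group was 0.24 at day 12 and 0.30 at day 0 in nuclei, against 0.10 at each day in cytoplasm. Fitted on the 6 nuclear libraries alone, 899 genes were higher (5.34%) and 1213 lower (7.2%), and 2106 of the 6281 calls were among these. Without the libraries that stand apart there were 4207 higher (24.7%) and 5406 lower (31.8%), or 56.5% in either direction, and 5591 of the 6281 calls passed again in the same direction. With the length trend taken out 3091 genes were higher (18.6%) and 3168 lower (19%). All 3 day 12 libraries lay above all 3 day 0 libraries for 17.2% of the genes tested and below them for 24.8%. Below, single genes whose call was lost in the fit of the nuclear libraries alone are named as such, and counts of that fit are given for the lists.

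The 12 largest rises were led by the Wnt inhibitor Notum and its antisense neighbours. Notum (chromosome 11, 120653788 to 120661175, minus strand, GRCm38), a secreted enzyme that inactivates Wnt proteins, stood at 40.9, 41.3 and 39.03 FPKM in nucleus day 12, against 2.85, 2.44 and 1.27 FPKM in nucleus day 0. The groups were far apart and the log2 change was 3.98 ± 0.20 (SE, adjusted p = 1.59e-06). Its annotated neighbours on the plus strand rose with it. Notumos overlaps Notum and had 29.9, 21.3 and 23.7 FPKM at day 12, against 1.29, 1.98 and 0.199 FPKM at day 0. Myadml2os, which overlaps Notum at its other end, had 28.5, 23.9 and 24.5 FPKM at day 12, against 2.06, 1.02 and 0.157 FPKM at day 0. The libraries were directional, but whether strand was used in counting is not given in the sources used here, so reads of Notum and of these antisense genes cannot be told apart.

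The other genes among the 12, which were chosen for days that do not overlap, rose less. Krt17, a keratin of stressed epithelia, had 55.8, 38.9 and 40.5 FPKM in nucleus day 12, against 3.14, 3.08 and 4.90 FPKM in nucleus day 0 (log2 change 3.44 ± 0.18, adjusted p = 2.06e-06). Msln, the surface protein mesothelin, reached a log2 change of 3.25 ± 0.20 and Saa3, an acute-phase protein, 3.34 ± 0.36. Saa3 was at 20.2 FPKM in the day 12 library that stands apart and at 55.5 and 55.0 FPKM in the other day 12 libraries, against 2.34, 3.66 and 4.77 FPKM at day 0, and without both libraries that stand apart the change was 4.02. Ccl2, a chemokine that draws monocytes, had 2.31, 10.6 and 10.1 FPKM at day 12, while at day 0 it was listed at 0 in 2 libraries and at 0.0839 FPKM in 1. The surface peptidase Dpp4 (3.16 ± 0.24), the prostaglandin transporter Slco2a1 (3.09 ± 0.14), Megf11 (3.12 ± 0.19), Prss35 (3.06 ± 0.19) and the transcription factor Hand1 of trophoblast and heart (3.05 ± 0.28) complete the 12 largest rises.

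The largest falls included matrix genes and RNA-binding proteins of early germ and stem cells. Col1a2 (chromosome 6, 4504814 to 4541544, plus strand, GRCm38), a chain of type I collagen, stood at 0.609, 0.533 and 0.645 FPKM in nucleus day 12, against 18.9, 16.2 and 9.26 FPKM in nucleus day 0 (log2 change -3.75 ± 0.22, adjusted p = 3.18e-06). Bgn, the matrix proteoglycan biglycan, stood at 1.04, 0.897 and 1.02 FPKM at day 12, against 11.02, 9.77 and 10.2 FPKM at day 0 (-2.87 ± 0.12). Both genes were low in whole cells of every day, with group means of at most 1.16 FPKM for Col1a2 and 1.24 FPKM for Bgn. The day 0 nuclei therefore held these mRNAs at shares that no whole cell group showed. Lin28a, the RNA-binding protein that blocks maturation of let-7 microRNAs, had 5.21, 3.94 and 4.07 FPKM at day 12, against 51.9, 49.9 and 19.3 FPKM at day 0 (-2.94 ± 0.30, adjusted p = 7.46e-05). Ybx2, a Y-box protein that stores mRNA in germ cells, had 8.47, 11.7 and 10.8 FPKM at day 12, against 84.9, 74.0 and 147 FPKM at day 0 (-3.19 ± 0.23).

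The size of other large falls depended on the libraries that stand apart. Rgcc, a cell cycle regulator, had 0.212, 2.18 and 1.66 FPKM in nucleus day 12, against 8.32, 6.44 and 54.4 FPKM in nucleus day 0. Its log2 change was -3.23 ± 0.69 (SE, adjusted p = 0.00479), the call was lost with the nuclear libraries alone (adjusted p = 0.058), and the change was -1.70 without both libraries that stand apart. Crabp1, which binds retinoic acid, changed by -3.28 ± 0.47, or -2.26 without them. Pigyl changed by -3.14 ± 0.44, or -2.32 without them. Ndufa4l2, a mitochondrial protein known as a hypoxia target, changed by -3.24 ± 0.23. Klk1, a kallikrein protease, changed by -2.92 ± 0.54, or -1.98 without them. Mal2, a membrane traffic protein, and Calca, the precursor of calcitonin, fell further without them, with -3.67 against -2.92 ± 0.34 for Mal2 and -3.31 against -2.87 ± 0.25 for Calca.

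**Figure D2:**
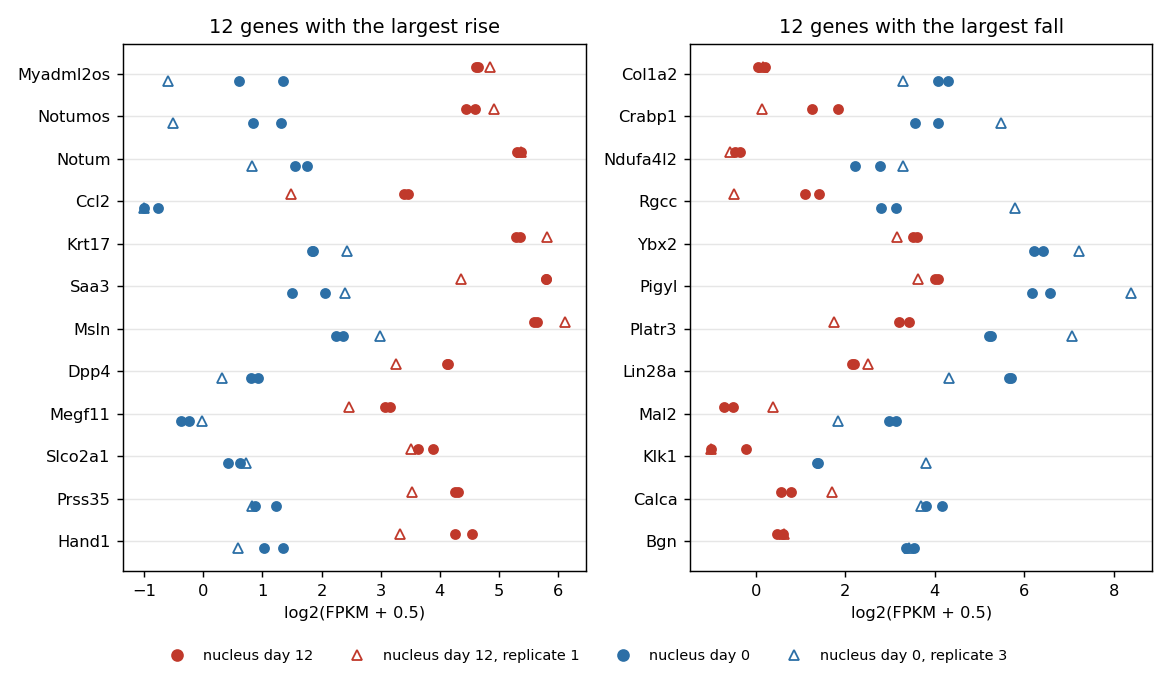
FPKM in each nuclear library, as log2(FPKM + 0.5), of the 12 genes with the largest rise (left) and the 12 with the largest fall (right); red for nucleus day 12, blue for nucleus day 0, triangles for the libraries that stand apart, and 1 point for each library. The genes were chosen for days that do not overlap, and the triangle of day 0 lies far to the right for Rgcc, at 54.4 FPKM, and for Klk1, at 13.4 FPKM.

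In mouse embryonic stem cells the most abundant microRNAs come from the miR-290 cluster, whose members and those of the miR-302 cluster share a seed, the bases that pair with target mRNAs. In the cytoplasm an Argonaute protein carries the microRNA to sites in 3′ UTRs, and a GW182 protein of the Tnrc6 family recruits decay enzymes. Loss of Dicer removes these microRNAs, and their targets are known to rise in such cells. The 3′ arms of the cluster are shown with the seed, bases 2 to 8, in capitals, since target sites pair with it. They are RefSeq sequences on GRCm38.p6, all on the plus strand of chromosome 7 between 3218674 and 3220837.
miR-291a-3p: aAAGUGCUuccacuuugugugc
miR-294-3p: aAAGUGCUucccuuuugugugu
miR-295-3p: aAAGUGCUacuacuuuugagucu
miR-290a-3p: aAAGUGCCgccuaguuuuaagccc
miR-291b-3p: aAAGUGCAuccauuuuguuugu
miR-293-3p: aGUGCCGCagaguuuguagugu

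The first 3 share the seed AAGUGCU, miR-290a-3p and miR-291b-3p differ from it in the last base, and that of miR-293-3p is shifted. A match to the shared seed, AGCACTT on the transcript strand, was present in the longest annotated 3′ UTR (GENCODE M21) of 16 of 18 listed targets, against 2351 of 13292 protein-coding genes tested (17.7%). The list was compiled from known targets, so this share describes the choice. The match in capitals and its surroundings are shown for the 4 listed genes with the largest called rise in the nucleus.
Lats2: ccgtacccaaAGCACTTgctgctgccca
Tgfbr2: ggatagcgttAGCACTTgacaatcagtc
Dazap2: acataccttcAGCACTTctcacaatgta
Irf2: cttatcttgaAGCACTTacaataggcct

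In the nucleus 10 of the 18 listed targets rose and 2 fell, against 15.1% and 21.6% of all genes, with a median log2 change of 0.48 in the list and -0.10 over all genes. With the nuclear libraries alone 6 of the rises and 1 of the falls passed. Without the libraries that stand apart 14 rose and 3 fell, against 24.7% and 31.8% of all genes in that fit. Lats2 (chromosome 14, 57689662 to 57758388, minus strand, GRCm38), a kinase of the Hippo pathway, had 12.8, 7.53 and 8.17 FPKM in nucleus day 12, against 3.42, 3.73 and 1.44 FPKM in nucleus day 0 (1.62 ± 0.28, adjusted p = 0.00144). Tgfbr2, a receptor for TGF-beta, had 8.11, 5.76 and 5.76 FPKM at day 12, against 2.81, 2.22 and 1.26 FPKM at day 0 (1.47 ± 0.23, adjusted p = 0.000819). All day 12 values of both genes were above all day 0 values, as for 17.2% of all genes tested. Dazap2 rose by 1.28 ± 0.16 and Irf2, an interferon regulatory factor, by 0.91 ± 0.17. The cell cycle inhibitor Cdkn1a overlapped between days, with 80.4, 108 and 102 FPKM at day 12, against 70.1, 58.3 and 102 FPKM at day 0 (0.36 ± 0.19, adjusted p = 0.155), but passed without the libraries that stand apart (0.71, adjusted p = 0.000249) and with the length trend taken out (0.49, adjusted p = 0.0412). Casp2, a caspase, did not pass with all libraries (0.36 ± 0.15, adjusted p = 0.076) or without those that stand apart (0.17, adjusted p = 0.168). With the length trend taken out it passed (0.33, adjusted p = 0.037). Rbl2, a pocket protein, passed at 0.44 ± 0.14 (adjusted p = 0.0287), and at 0.60 without the libraries that stand apart (adjusted p = 0.000221). Its call was lost with the nuclear libraries alone and with the length trend taken out (0.38, adjusted p = 0.134).

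In the cytoplasm 13 of these targets rose and 2 fell, against 16% and 16.6% of all genes, and their median log2 change was 1.00. The nuclear change was smaller than the cytoplasmic one for 14 of 18 targets, with a median difference of -0.45, against -0.06 over all genes. The difference itself passed for 3 of them, all in that direction, and such calls were few or many depending on the libraries fitted, as given below. It was -1.55 ± 0.32 for Tgfbr2 (SE, adjusted p = 0.0464), whose cytoplasmic change was 3.03, -1.25 ± 0.24 for Irf2 (adjusted p = 0.0359) and -0.68 ± 0.12 for Ei24 (adjusted p = 0.0243). For Lats2 it was -1.53 ± 0.39 (adjusted p = 0.0828). Without the libraries that stand apart, 11 targets had a difference below 0 that passed and 3 had one above 0, against 21.6% and 17.1% of all genes.

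**Figure D3:**
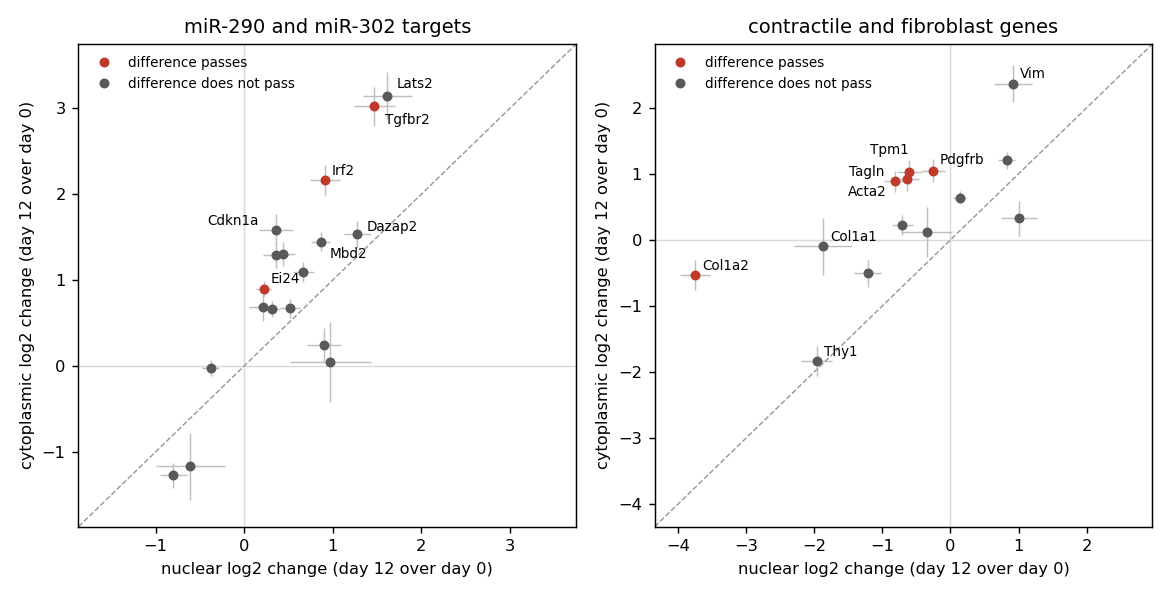
Nuclear log2 change on the horizontal axis and cytoplasmic log2 change on the vertical axis, day 12 over day 0, with standard errors as bars, for listed microRNA targets (left, 18 genes) and contractile and fibroblast genes (right, 14 genes); the dashed line marks equal change and red points have a difference that passes. Most targets lie above the line, with Tgfbr2 at 1.47 in the nucleus and 3.03 in the cytoplasm, and Acta2, Tagln and Tpm1 lie left of 0 and above 0.

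Among the proteins that make or use microRNAs, 6 of 15 rose and 1, Dicer1, fell, against 15.1% and 21.6% of all genes, and 3 of the rises and the fall passed with the nuclear libraries alone. Ago1, an Argonaute protein, had 32.7, 26.98 and 30.8 FPKM in nucleus day 12, against 12.4, 13.3 and 5.27 FPKM in nucleus day 0 (1.60 ± 0.26, adjusted p = 0.00116). Tnrc6b rose by 1.34 ± 0.23 and Tnrc6c by 0.92 ± 0.11. Without the libraries that stand apart 6 rose and 4 fell, against 24.7% and 31.8% of all genes.

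The hairpins of the miR-290 cluster could be read in these nuclei, where they lie within a primary transcript. In nucleus day 12 all 7 measured hairpins had lower means than in nucleus day 0, but only 2 passed. Mir291a stood at 40.4, 22.4 and 31.5 FPKM at day 12, against 83.8, 84.9 and 74.7 FPKM at day 0 (-1.39 ± 0.37, adjusted p = 0.0145). Mir291b stood at 77.6, 69.8 and 51.0 FPKM at day 12, against 94.3, 114 and 111 FPKM at day 0 (-0.70 ± 0.19, adjusted p = 0.0156), a call lost with the nuclear libraries alone, with quantile normalization and without replicate 3 of nucleus day 12. Mir291a lost its call without replicate 2 of nucleus day 12. Mir294 had 89.2, 44.7 and 38.0 FPKM at day 12, against 107, 86.7 and 253 FPKM at day 0, and its days overlapped (adjusted p = 0.104). In the cytoplasm Mir291b changed the other way, by 0.78 ± 0.19, and the difference of -1.48 ± 0.27 passed (adjusted p = 0.028). These features are shorter than a read pair, so their FPKM rests on a length correction that is uncertain at this size, and fragments of the surrounding transcript cannot be told apart from the hairpin. Over all 134 microRNA genes tested, 8 were higher and 16 lower, smaller shares than the 15.1% and 21.6% of all genes, and 3 and 4 of these passed with the nuclear libraries alone. Mir17hg, the host transcript of the miR-17 to miR-92 cluster, had 10.9, 8.00 and 8.77 FPKM at day 12, against 15.4, 25.5 and 18.7 FPKM at day 0 (-1.05 ± 0.19, adjusted p = 0.00219).

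Small nucleolar RNAs guide the modification of ribosomal RNA and are cut out of introns of host transcripts. All 8 snoRNA host genes measured fell, against 21.6% of all genes, with a median log2 change of -1.33. The 8 were also lower without the libraries that stand apart (median -1.22), against 31.8% of all genes in that fit, and 6 passed with the nuclear libraries alone. Snhg3 had 20.1, 15.8 and 14.3 FPKM in nucleus day 12, against 42.1, 45.5 and 52.5 FPKM in nucleus day 0 (-1.46 ± 0.18, adjusted p = 0.000259). Gas5, whose spliced RNA is known to accumulate when translation is blocked, had 32.4, 24.5 and 24.4 FPKM at day 12, against 57.0, 74.8 and 58.0 FPKM at day 0 (-1.21 ± 0.15, adjusted p = 0.000267). No day 12 library of either gene reached a day 0 library, which held in that direction for 24.8% of all genes tested. In the cytoplasm 4 of the 8 fell and 1, Snhg15, rose, against 16.6% and 16% of all genes. Snhg15 changed by -0.62 ± 0.14 in the nucleus and by 0.66 ± 0.14 in the cytoplasm, and the difference passed (-1.28 ± 0.20, adjusted p = 0.0161). Its nuclear call and that of Snhg18 were lost with the nuclear libraries alone.

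The small nucleolar RNAs themselves, 81 of them measured, were lower in 16 cases and higher in 3, against 21.6% and 15.1% of all genes, so the share that fell was near that of all genes. With the nuclear libraries alone 10 and 1 of these passed. Snora24 had 18.7, 6.76 and 8.18 FPKM in nucleus day 12, against 47.0, 43.0 and 60.9 FPKM in nucleus day 0 (-2.24 ± 0.35). Snord72 had 25.2, 8.88 and 8.44 FPKM at day 12, against 40.1, 67.0 and 52.2 FPKM at day 0 (-2.02 ± 0.39). They carry no poly(A) tail when mature and are short, and whether these reads belong to introns of their hosts was not tested. The length correction has the same limit as for hairpins.

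SR proteins and Clk kinases, which set splice site choice, showed 8 falls and no rise among 16 members, against 21.6% and 15.1% of all genes, and 2 of the falls passed with the nuclear libraries alone. There were 5 calls without replicate 2 or without replicate 3 of nucleus day 12, 5 when libraries were scaled by median of ratios and 3 after quantile normalization. Srsf1 had 86.5, 92.3 and 98.7 FPKM in nucleus day 12, against 145, 182 and 183 FPKM in nucleus day 0 (-0.87 ± 0.14, adjusted p = 0.000859). In the cytoplasm it rose by 0.51 ± 0.14, and the difference passed (-1.38 ± 0.19, adjusted p = 0.0108). Srsf2 had 192, 144 and 137 FPKM at day 12, against 248, 271 and 250 FPKM at day 0 (-0.71 ± 0.15), lost with the nuclear libraries alone.

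Of 1456 annotated long noncoding RNA (lncRNA) genes tested, 177 were higher in nucleus day 12 and 319 lower, and of the 117 linc models that the authors list, 18 were higher and 38 lower, against 15.1% and 21.6% of all genes. For the annotated lncRNA genes these shares were near those of all genes. With the nuclear libraries alone, 48 and 94 of the lncRNA calls and 7 and 17 of the linc calls passed. The median log2 change was -0.15 for lncRNA genes and -0.43 for linc models, against -0.10 for all genes. Beside Notumos and Myadml2os, the largest rises were those of Gm53 (2.50 ± 0.15), Gm16211 (2.43 ± 0.11), 4933438K21Rik (2.40 ± 0.23) and Rapgef4os1. Gm16211 had 122, 102 and 96.2 FPKM at day 12, against 20.2, 20.7 and 17.3 FPKM at day 0. Rapgef4os1 had 5.49, 0.626 and 2.14 FPKM at day 12 and was listed at 0 in all 3 day 0 libraries.

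The largest lncRNA falls were among the Platr genes, transcripts named for their association with pluripotency. Of these, 9 of 24 fell and 3 rose, against 21.6% and 15.1% of all genes. With the nuclear libraries alone 7 of the falls and 1 of the rises passed. Platr14 had 34.9, 46.6 and 44.4 FPKM in nucleus day 12, against 187, 206 and 271 FPKM in nucleus day 0 (-2.38 ± 0.15, adjusted p = 3.89e-06). Platr15 had 18.0, 13.9 and 14.4 FPKM at day 12, against 94.0, 115 and 137 FPKM at day 0 (-2.85 ± 0.16, adjusted p = 2.88e-06). Platr3 changed by -3.05 ± 0.52, or by -1.92 without the libraries that stand apart, and Platr13 by -2.76 ± 0.34. Platr28 was on the other side, with 3.69, 1.98 and 3.05 FPKM at day 12, against 0.221, 0.438 and 1.06 FPKM at day 0 (1.71 ± 0.32). Without the libraries that stand apart the Platr counts were 9 lower and 6 higher, against 31.8% and 24.7% of all genes. Gm5091 (-2.72 ± 0.69), Mhrt (-2.66 ± 0.25) and Ptprtos (-2.61 ± 0.40) also had large falls, that of Gm5091 being lost with the nuclear libraries alone (adjusted p = 0.0768).

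**Figure D4:**
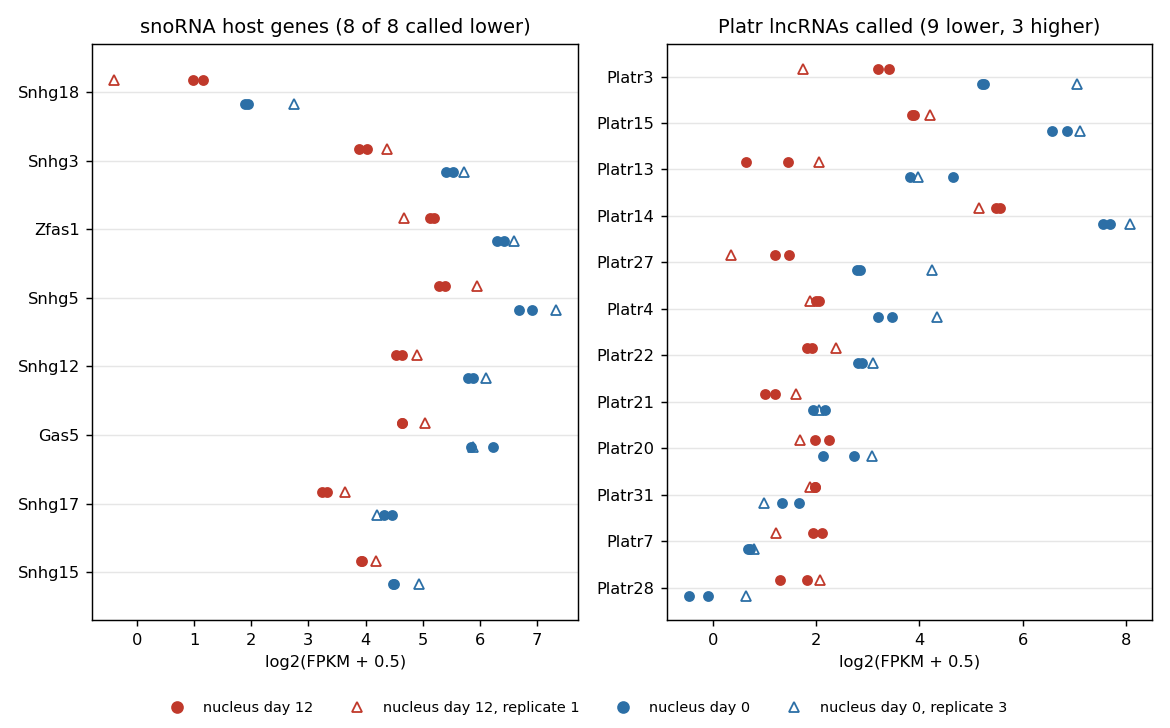
FPKM in each nuclear library, as log2(FPKM + 0.5), of the 8 snoRNA host genes (left) and of the 12 Platr lncRNAs that passed (right); red for nucleus day 12, blue for nucleus day 0, triangles for the libraries that stand apart, and 1 point for each library. In every snoRNA host gene the 3 day 12 points lie left of the 3 day 0 points, as for 24.8% of all genes tested. The lowest 3 Platr genes, which rose, show the opposite order.

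Of 15 listed nuclear lncRNAs 4 fell and none rose, against 21.6% and 15.1% of all genes, and 1 of the falls, that of Firre, passed with the nuclear libraries alone. Firre, which spreads over several chromosomes, had 25.6, 13.7 and 16.9 FPKM in nucleus day 12, against 44.3, 54.9 and 36.2 FPKM in nucleus day 0 (-1.27 ± 0.24, adjusted p = 0.00225). Meg3, an imprinted lncRNA, changed by -0.61 ± 0.16 (adjusted p = 0.0128), lost with the nuclear libraries alone. The count was 2 without replicate 2 or replicate 3 of nucleus day 12 and 8 without its replicate 1. Without both libraries that stand apart 11 were lower and 1 higher, against 31.8% and 24.7% of all genes in that fit. Malat1, a lncRNA of nuclear speckles, had 80.4, 223 and 254 FPKM at day 12, against 213, 228 and 415 FPKM at day 0. Its extremes are the libraries that stand apart, its days overlap, and its change of -0.71 ± 0.38 did not pass (adjusted p = 0.167). Neat1, the scaffold of paraspeckles, had 27.03, 23.1 and 25.4 FPKM at day 12, against 12.2, 18.3 and 24.1 FPKM at day 0 (0.51 ± 0.20, adjusted p = 0.067). It passed at 0.68 without the libraries that stand apart (adjusted p = 0.00709), but with the length trend taken out it was at 0.14 (adjusted p = 0.751). In the cytoplasm Malat1 lay between 15.0 and 19.1 FPKM, which describes the separation of the fractions. Xist, which silences an X chromosome, was at most 2.44 FPKM in any nuclear library. It did not pass with all libraries (-0.64, adjusted p = 0.167) or with the length trend taken out (-0.96, adjusted p = 0.104). Where both libraries that stand apart were left out it passed as lower (-0.54, adjusted p = 0.0148). Reads of Tsix on the other strand cannot be told apart from Xist.

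Genes scarce in whole cells made up 1618 of the genes tested, with a mean under 0.5 FPKM in each of the 5 whole cell groups. They entered the test through any nuclear or cytoplasmic group. Of these 197 were higher in nucleus day 12 (12.2%) and 318 lower (19.7%), smaller shares than the 15.1% and 21.6% of all genes. Among them 344 were lncRNA genes, 33 of these higher and 87 lower. Only 40 were called, reached 2 FPKM in a nuclear group and had days that did not overlap. Pseudogenes, small RNA genes and genes without a unique annotated symbol were left out of that count. Rsad2, the antiviral protein viperin, had 6.21, 4.69 and 5.04 FPKM in nucleus day 12, against 0.177, 0.299 and 0.342 FPKM in nucleus day 0 (2.91 ± 0.15, adjusted p = 2.2e-06). Ccl5, a chemokine, had 0.608, 3.41 and 3.01 FPKM at day 12 and was listed at 0 in all 3 day 0 libraries. Gpr50 (1.84 ± 0.20), a receptor related to those for melatonin, Chit1 (1.77 ± 0.30), a chitinase, and Cd3g (1.83 ± 0.50), a T cell receptor subunit, followed, and the call of Cd3g was lost with the nuclear libraries alone and without replicate 2 or replicate 3 of nucleus day 12.

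On the other side stood Myh7, the beta heavy chain of cardiac myosin, with 0.0876, 0.0719 and 0.128 FPKM in nucleus day 12, against 2.56, 2.75 and 0.713 FPKM in nucleus day 0 (-1.94 ± 0.31, adjusted p = 0.000943). Mhrt overlaps it in part on the opposite strand of chromosome 14 and had 0.151, 0.124 and 0.0590 FPKM at day 12, against 5.26, 3.39 and 2.05 FPKM at day 0, so their reads cannot be told apart. Gabre, a GABA receptor subunit, fell by 1.81 on the log2 scale (SE 0.22), Scgb1c1 by 1.86 (SE 0.37), Cpne7 by 1.77 (SE 0.21) and Aym1 by 1.75 (SE 0.31). Among lncRNAs of this kind, chosen after their values were seen, 8030451A03Rik had 2.12, 3.97 and 4.82 FPKM at day 12, against 0.640, 0.523 and 0.152 FPKM at day 0. Gm13522 was listed at 0 in 2 day 12 libraries and at 0.334 FPKM in 1, against 2.52, 3.20 and 2.79 FPKM at day 0 (-2.49 ± 0.26, adjusted p = 8.53e-05).

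Zscan4 genes mark the rare stem cells that pass through a state like that of the 2-cell embryo. Of the 14 listed genes of that stage only 6 reached the level needed for a test, and 5 of these rose and none fell. Their median log2 change was 1.39, and of all genes 15.1% were higher and 21.6% lower. The same counts held with the nuclear libraries alone, where 5.34% of all genes were higher. They also held without the libraries that stand apart, where 24.7% of all genes were higher. Zscan4c, Zscan4d, Zscan4e and Zscan4f averaged 0.0155 to 0.0794 FPKM in nucleus day 0. They entered the test only through day 12, so a fall could not be seen for them. Zscan4f had 1.36, 1.84 and 1.91 FPKM in nucleus day 12, against 0.118, 0.0333 and 0.0869 FPKM in nucleus day 0 (1.92 ± 0.16, adjusted p = 2.34e-05). Zscan4d (1.77 ± 0.21), Zscan4c (1.41 ± 0.19) and Zscan4e (1.37 ± 0.16) are near-identical copies, so how reads were split among them is uncertain. The remaining rise was that of Usp17la (1.03).

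Interferon genes, induced by viral RNA and cytokines, showed 7 rises and 3 falls among 16, against 15.1% and 21.6% of all genes. The share that fell was near that of all genes. With the nuclear libraries alone 4 of the rises and none of the falls passed. Oas1a, a sensor of double-stranded RNA, had 2.07, 3.39 and 3.79 FPKM in nucleus day 12, against 0.456, 1.37 and 1.06 FPKM in nucleus day 0 (1.31 ± 0.28, adjusted p = 0.00527). Ifit1 rose by 1.18 ± 0.22. Bst2, which tethers virus particles, changed by -1.55 ± 0.45, a call lost with the nuclear libraries alone and without replicate 1 of nucleus day 12.

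Basement membrane genes and integrins, which anchor cells to matrix, showed 10 rises and 1 fall among 17, against 15.1% and 21.6% of all genes. Their median log2 change was 0.78. With the nuclear libraries alone 5 of the rises and the fall passed. Without the libraries that stand apart the counts were again 10 and 1, against 24.7% and 31.8% of all genes in that fit. Nid1, which links laminin to collagen IV, had 113, 156 and 170.0 FPKM in nucleus day 12, against 42.9, 47.3 and 23.8 FPKM in nucleus day 0 (1.97 ± 0.24, adjusted p = 0.000194). Col4a1 rose by 1.63 ± 0.17, Col4a2 by 1.52 ± 0.19 and Itgav by 1.42 ± 0.27, while Lama1, a laminin chain, fell (-1.13 ± 0.21, adjusted p = 0.00234). Of the 22 secreted and surface genes 10 rose, led by Ccl2 and Msln, and 4 fell, against 15.1% and 21.6% of all genes. With the nuclear libraries alone 5 and 3 of these passed.

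Contractile and fibroblast genes behaved otherwise, with 8 falls and 3 rises among 14, against 21.6% and 15.1% of all genes. With the nuclear libraries alone 3 and 1 of these passed. Without replicate 3 of nucleus day 12 the list had 7 calls in place of 11. Beside Col1a2, the leading falls were those of Thy1, a surface glycoprotein (-1.96 ± 0.23), Col1a1 (-1.87 ± 0.43) and Cnn1, a calponin of smooth muscle (-1.22 ± 0.20). Col1a1 had 6.27, 14.5 and 14.1 FPKM in nucleus day 12, against 68.7, 54.6 and 18.5 FPKM in nucleus day 0, and its call was lost with the nuclear libraries alone (adjusted p = 0.0695). In the cytoplasm 7 of these 14 genes rose and 1 fell, against 16% and 16.6% of all genes. Acta2, the smooth muscle actin, had 53.9, 72.4 and 78.5 FPKM in nucleus day 12, against 143, 113 and 105 FPKM in nucleus day 0 (-0.82 ± 0.16), while its cytoplasmic change was 0.88 ± 0.16, and the difference passed (-1.70 ± 0.22, adjusted p = 0.0101). Tagln and Tpm1, 2 further actin-binding proteins, showed the same opposition, with nuclear changes of -0.64 and -0.61 and cytoplasmic changes of 0.91 and 1.03. These 3 genes were singled out after their values were seen, and their nuclear calls were lost with the nuclear libraries alone. Those of Tagln and Tpm1 were also lost with quantile normalization, and that of Tagln with the length trend taken out (adjusted p = 0.172).

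The summed level of the 6 fibroblast markers was 10.4 to 20.99 FPKM in nucleus day 12, against 35.8 to 98.8 FPKM in nucleus day 0. In the cytoplasm it was 4.72 to 5.18 FPKM at day 12, against 9.10 to 11.1 FPKM at day 0. The cytoplasmic fall rested mostly on Thy1, with 1.77, 2.04 and 1.83 FPKM at day 12, against 8.79, 8.33 and 6.94 FPKM at day 0. Col1a1 changed there by -0.10 (adjusted p = 0.906), and Pdgfrb, Dcn and Col3a1 were higher at day 12. In the nucleus Col1a1, Col1a2 and Thy1, named above, carried the sums. Of the other markers, Col3a1 had 0.836, 1.95 and 2.06 FPKM in nucleus day 12, against 0.650, 0.705 and 0.240 FPKM in nucleus day 0, and rose, a call lost with the nuclear libraries alone. Pdgfrb had 1.65, 1.88 and 1.98 FPKM in nucleus day 12, against 2.86, 2.39 and 1.75 FPKM in nucleus day 0, and Dcn was at most 0.466 FPKM in any nuclear library. The part of other cells in the collagen values was not tested.

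Polycomb proteins, which keep developmental genes silent, showed 7 rises and 3 falls among 25, against 15.1% and 21.6% of all genes, and 4 and 2 of these passed with the nuclear libraries alone. Aebp2, a cofactor of Polycomb complex 2, had 26.5, 29.4 and 28.5 FPKM in nucleus day 12, against 9.41, 10.4 and 10.2 FPKM in nucleus day 0 (1.45 ± 0.09, adjusted p = 3.75e-06). Bmi1, of Polycomb complex 1, rose by 1.82 ± 0.29, or 1.25 without the libraries that stand apart. Jarid2, another cofactor of complex 2, had 146, 59.7 and 65.1 FPKM at day 12, against 26.1, 32.3 and 21.6 FPKM at day 0 (1.64 ± 0.28), with a cytoplasmic change of -0.04 ± 0.28 and a difference that did not pass (adjusted p = 0.0674). Among 12 DNA methylation genes 4 rose and 2 fell, against 15.1% and 21.6% of all genes. With the nuclear libraries alone 3 and 1 of these passed. Dnmt1, the maintenance methyltransferase, had 81.5, 75.0 and 83.7 FPKM at day 12, against 44.9, 50.8 and 31.8 FPKM at day 0 (0.93 ± 0.15), and Dnmt3l, a cofactor of de novo methylation, fell (-1.04 ± 0.09, adjusted p = 3.21e-05). Dnmt3b had 21.2, 9.82 and 11.4 FPKM at day 12, against 20.96, 23.7 and 6.06 FPKM at day 0, with overlapping days and no call (-0.12, adjusted p = 0.845). Without the libraries that stand apart it was lower by a log2 change of -1.04 (adjusted p = 4.24e-05), and with the length trend taken out it was at -0.06 (adjusted p = 0.914).

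Glycolysis genes showed 9 falls and 1 rise among 18, hypoxia response genes 8 falls and 2 rises among 20, and Atf4 stress genes 11 falls and 2 rises among 18, against 21.6% lower and 15.1% higher over all genes. With the nuclear libraries alone 3, 4 and 6 of these falls passed. Pfkp, a phosphofructokinase, had 6.60, 7.05 and 6.86 FPKM in nucleus day 12, against 20.7, 19.7 and 38.5 FPKM in nucleus day 0 (-1.80 ± 0.20). Vegfa, the angiogenic factor, had 6.82, 7.18 and 6.78 FPKM at day 12, against 21.7, 23.4 and 24.5 FPKM at day 0 (-1.67 ± 0.10, adjusted p = 2.97e-06). Psat1, of serine synthesis, had 21.7, 27.2 and 25.2 FPKM at day 12, against 52.6, 47.2 and 55.6 FPKM at day 0 (-1.06 ± 0.11).

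All 8 embryonic stem cell markers averaged at least 1 FPKM on both days, with sums of 1095 to 2825 FPKM in nucleus day 12, against 1840 to 4669 FPKM in nucleus day 0. The lowest day 12 sum and the highest day 0 sum belong to the libraries that stand apart. The remaining sums had the opposite order, with 2646 and 2825 FPKM at day 12, against 1840 and 2203 FPKM at day 0. Dppa5a was the largest member, with 414, 1742 and 1615 FPKM at day 12, against 1319, 979 and 3560 FPKM at day 0. Pou5f1 had 105, 199 and 183 FPKM at day 12, against 141, 119 and 218 FPKM at day 0 (0.02 ± 0.26, adjusted p = 0.957). Nanog had 164, 360.0 and 343 FPKM at day 12, against 182, 190.0 and 253 FPKM at day 0 (0.40 ± 0.26, adjusted p = 0.255), and passed at 0.92 without the libraries that stand apart, and also with quantile normalization (0.56), with the length trend taken out (0.60) and without replicate 1 of nucleus day 12 (0.77). Sox2 did not pass either (-0.03 ± 0.15, adjusted p = 0.897). Without the libraries that stand apart both Pou5f1 (0.56, adjusted p = 0.000728) and Sox2 (0.22, adjusted p = 0.0351) passed as higher. With the length trend taken out neither passed (0.22, adjusted p = 0.402 for Pou5f1 and 0.17, adjusted p = 0.184 for Sox2). Trophoblast markers summed to 10.6 to 13.3 FPKM at day 12, against 3.76 to 6.49 FPKM at day 0, and neuroectoderm markers to 4.47 to 5.27 FPKM at day 12, against 1.12 to 1.22 FPKM at day 0, with Neurog2 at 0 in all 3 day 12 libraries. Sox1, a neural transcription factor, rose by 2.02 ± 0.13 and, at 3.74 to 4.39 FPKM at day 12, carried the neuroectoderm sum. Most of the trophoblast sum was Krt7, with 6.83, 9.94 and 9.69 FPKM at day 12, against 3.12, 2.89 and 5.96 FPKM at day 0. Cdx2 and Elf5 were at most 0.517 FPKM in any nuclear library. Gata3, of trophoblast, rose by 1.64 ± 0.16, while Krt19, of a longer trophoblast list, fell (-1.31 ± 0.17, adjusted p = 0.000311). In that list 5 of 12 rose and 2 fell, against 15.1% and 21.6% of all genes. Endoderm markers summed to 2.22 to 2.85 FPKM at day 12, against 1.20 to 1.89 FPKM at day 0, and Gata4, an endoderm transcription factor, rose (0.81 ± 0.15, adjusted p = 0.00217). Dab2, of a longer endoderm list, fell (-0.94 ± 0.31, adjusted p = 0.0339), a call lost with the nuclear libraries alone. Only 6 of the 14 genes of that list were tested. Of these 3 rose and 1 fell, against 15.1% and 21.6% of all genes. The rises were those of Gata4 and of Col4a1 and Col4a2, which are also counted above as basement membrane genes. Mesoderm markers summed to 0.661 to 4.22 FPKM at day 12, against 0.536 to 5.97 FPKM at day 0, and overlapped. Of 22 imprinted genes 6 rose and 6 fell, against 15.1% and 21.6% of all genes, from Plagl1 (2.55 ± 0.21) to Phlda2 (-2.22 ± 0.35). With the nuclear libraries alone 2 and 2 of these passed.

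**Figure D5:**
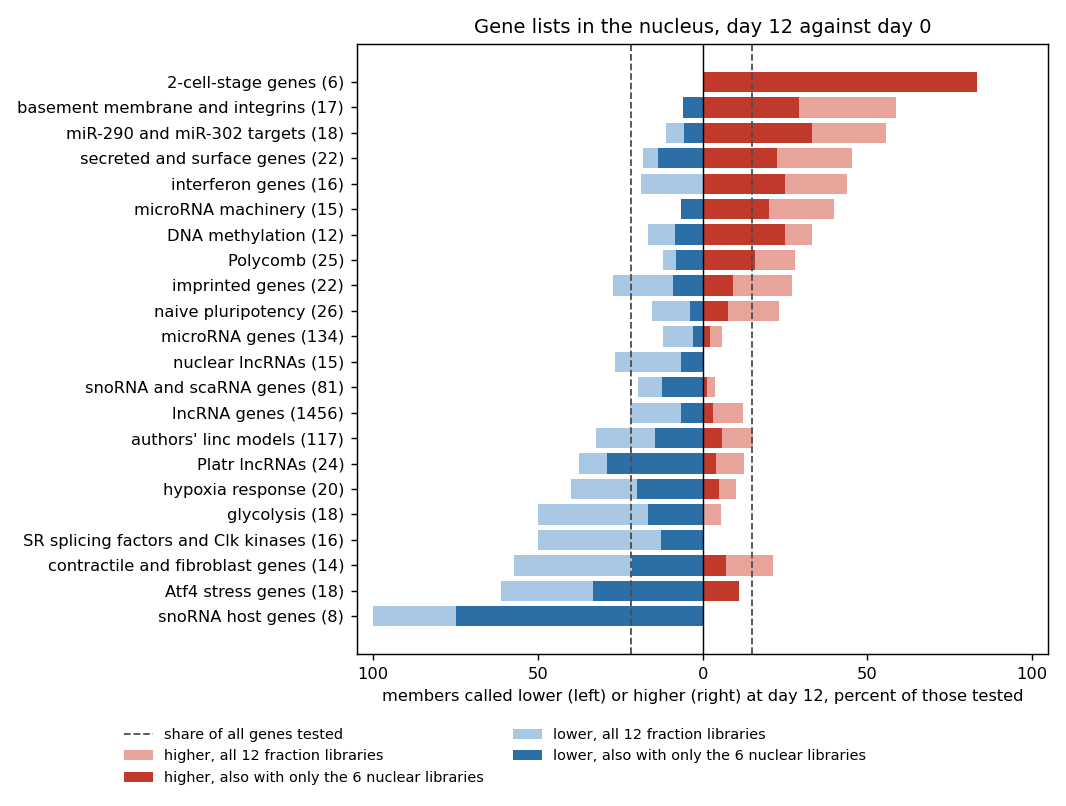
Share of the tested members of each gene list that were lower (left) or higher (right) in nucleus day 12 than in nucleus day 0, in percent, with the number tested in parentheses; pale bars count calls with all 12 fraction libraries and dark bars those that passed with the 6 nuclear libraries alone too. Dashed lines mark 21.6% lower and 15.1% higher over all genes, and all 8 snoRNA host genes are lower. Of the 6 tested genes of the 2-cell stage 5 are higher, and the Zscan4 genes among them entered the test only through day 12.

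Across all genes, the nuclear change differed from the cytoplasmic change for 227 of 17124 genes (1.33%), with 47 above 0 (0.274%) and 180 below 0 (1.05%). Unadjusted p was under 0.05 for 2842. The share above 0 among these calls was 20.7%, and it was 31.6% when libraries were scaled by median of ratios, 40.9% after quantile normalization, 45.1% with the length trend taken out and 44.1% without both libraries that stand apart. The count was 53 with the replicate number as a block, 137 after quantile normalization, 24 to 55 without any 1 cytoplasmic library and 83, 94, 114 and 220.0 without replicate 2 or 3 of nucleus day 12 or replicate 1 or 2 of nucleus day 0. It was 1443 without replicate 3 of nucleus day 0, 1699 without replicate 1 of nucleus day 12 and 6580 (38.7%) without both. Emp1, a membrane protein of epithelia, rose in both fractions but less in nuclei. It had 35.6, 38.0 and 36.3 FPKM in nucleus day 12, against 13.2, 12.6 and 13.8 FPKM in nucleus day 0 (1.44 ± 0.08), and its cytoplasmic change was 3.70 ± 0.08 (difference -2.26 ± 0.12, adjusted p = 2.05e-05).

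Mov10, a helicase that works with Argonaute proteins and restrains retrotransposons, showed the reverse. It had 137, 149 and 152 FPKM in nucleus day 12, against 52.5, 50.8 and 37.7 FPKM in nucleus day 0 (1.64 ± 0.13), with a cytoplasmic change of 0.48 ± 0.13 and a difference of 1.16 ± 0.18 (adjusted p = 0.0165). Tprn had 63.4, 31.9 and 36.8 FPKM at day 12, against 15.3, 18.3 and 13.7 FPKM at day 0, with a difference of 1.83 ± 0.31 (adjusted p = 0.0213). For 37 genes (0.216%) the nuclear and cytoplasmic changes passed in opposite directions and so did their difference. Besides Acta2, Tagln, Tpm1, Srsf1, Snhg15 and Mir291b they included Pmp22, a myelin protein (-0.69 in nuclei and 1.58 in cytoplasm), and, with a nuclear rise, Myh14, a nonmuscle myosin (0.76 in nuclei and -1.09 in cytoplasm). The nuclear calls of Pmp22 and Myh14 were lost with the nuclear libraries alone, without replicate 3 of nucleus day 12 and with the length trend taken out.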

How the data were processed

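Groups came from GEO titles. Per the file headers, the authors deposited 1 FPKM value per gene in each library, for 38123 genes. Tools named per the submitters' processing notes are Cufflinks 1.3.0 and TopHat2 2.0.9, and the build is mm9. How these were used, which annotation served, whether counting used strand and how multiply mapped reads were handled is not stated in those notes. No counts were used. From the steps of low values, nuclear libraries had a depth of 0.768 to 1.06 times that of nucleus day 0 replicate 2, and a low gene near 1 read is the least precise.

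The log2 of FPKM + 0.5 was fitted in limma 3.58.1 (R 4.3.3, moderated variances with an intensity trend), with a mean for each fraction and day over the 12 fraction libraries. Genes entered where any group averaged 0.5 FPKM or more, and p-values were adjusted over them by Benjamini-Hochberg at 0.05. Because of the pseudocount, changes of low genes are understated. On simulated data with the spread of each fraction, the fit that shares its spread called more unchanged genes than the fit of the nuclear libraries alone, so that fit is given beside it.

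Named genes were the 12 largest rises and falls, 6 and 6 lncRNAs, 5 and 5 genes low in whole cells, 6 and 6 by the difference between fractions, and up to 4 called members of a list, after filters on level (2 FPKM), overlap, predicted models, pseudogenes and unclear symbols; Ei24, Gas5, Snhg15, Lama1, Usp17la, Platr28, Mir294 and the genes marked so in the text were chosen after their values were seen. The members, gene lists and tests were chosen with earlier results of these data known. Coordinates, gene classes and lengths are from GENCODE M21 (GRCm38), matched by gene identifier, so no mm9 coordinate is given; microRNA sequences are RefSeq's. Alternatives were pseudocounts, filters, scalings, a replicate block, other sets of libraries and, added after the data were seen, removal of a length trend. Python 3.11.15 and matplotlib 3.10.9 drew the figures.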

Additional observations from a re-analysis of the deposited data

Results flagged for a closer look

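Of the 227 genes whose nuclear change differed from the cytoplasmic change, 27 are among the genes that were followed through every alternative, and they are given here by a limma test of the difference itself, as the log2 nuclear change minus the log2 cytoplasmic change. No explanation was tested. Groups of 3 libraries are too small to single out a library for 1 gene.

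The difference was below 0 for 20 of them. It was -3.21 for Col1a2 (adjusted p = 0.00288), -2.13 for Bgn (adjusted p = 0.000788), -2.27 for Pmp22, -2.26 for Emp1, -2.09 for Anxa3, -1.67 for Gabre and -1.53 for Krt19. Actin genes gave -1.70 for Acta2, -1.55 for Tagln and -1.63 for Tpm1. Among microRNA targets and regulators it was -1.55 for Tgfbr2, -1.25 for Irf2, -0.98 for the cell cycle inhibitor Cdkn2a, -0.75 for Vegfa and -1.38 for Srsf1. Noncoding and histone genes gave -2.35 for Mhrt, -2.24 for Gm13522, -1.20 for Platr15, -1.48 for Mir291b and -1.47 for Hist1h2ac.

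The difference was above 0 for 7. The nuclear change was above the cytoplasmic one by 1.84 for Myh14, 1.83 for Tprn, 1.36 for Sipa1l2, 1.23 for Ceacam20, 1.22 for Tex14 (adjusted p = 0.0498) and 1.16 for Mov10. It was 1.84 for Mir493, which stood at 1.17, 1.92 and 0.916 FPKM in nucleus day 12 and was listed at 0 in all 3 libraries of nucleus day 0. Every cytoplasmic library of both days also listed it at 0, so this difference is its nuclear change alone. Mir493 entered the test only through nucleus day 12, so a fall could not be seen. At 83 bases it has the limit of length correction given for hairpins. The nuclear changes of Anxa3 (-0.30) and Tex14 (0.49) did not themselves pass with all libraries.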

How the results depend on the processing

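Calls in the nucleus, 6281 in all, numbered 2112 with only the 6 nuclear libraries and 9613 without both libraries that stand apart, and between 4783 and 6737 with any 1 nuclear library left out. With the replicate number as a block there were 5825. The deviations of nuclear libraries with the same number correlated at 0.27, -0.36 and 0.22, and those of the libraries that stand apart at -0.38. Between nucleus and cytoplasm the same numbers gave 0.15, 0.01 and 0.15 at day 12, and -0.08, -0.02 and -0.09 at day 0. These values cannot decide whether the replicate numbers pair libraries, since 1 nuclear library of each day stands apart. Calls of a difference between fractions, 227 in all, were 53 with the replicate block, 137 with quantile normalization, 348 with the length trend removed, 6580 without both libraries that stand apart, and 24 to 1699 with 1 library left out (lowest without cytoplasm day 12 replicate 1, highest without nucleus day 12 replicate 1). Dicer1 stayed below 0 and past the threshold throughout, from -1.83 to -1.31 with 1 library left out.

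Values without a call changed sign. Malat1 was at 0.11 without both libraries that stand apart. Sox2 was at 0.22 there, at 0.047 with median-of-ratios scaling, at 0.10 with quantile normalization, at 0.17 with the length trend removed and from -0.11 to 0.11 with 1 library left out. Pou5f1 ranged from -0.17 to 0.31 and Dnmt3b from -0.72 to 0.22 with 1 library left out. Ribosomal protein genes were lower in 13 of 81 cases and never higher, against 21.6% and 15.1% of all genes. Without both libraries that stand apart they were higher in 23 and lower in 10, against 24.7% and 31.8% of all genes. Large cytoskeletal genes were higher in 1 of 17 cases and never lower, against 15.1% and 21.6% of all genes. Without both libraries that stand apart they were higher in 1 and lower in 9, against 24.7% and 31.8% of all genes. The cause was not tested. Depth limits low genes: below about 1 FPKM a change rests on few reads.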
